A study of Mus musculus with 3 samples.

Results

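The nuclei described here are mouse liver nuclei that met a rule for sinusoidal endothelial genes, chosen on their own counts from 3 single-nucleus RNA sequencing (sNuc-Seq) libraries. They are called endothelial nuclei below for that rule, although RNA of hepatocytes and leukocytes was present too, and 20 hepatocyte markers summed to more than the 11 endothelial genes of the rule in every library. A nucleus was taken when it had a UMI (unique molecular identifier, 1 captured RNA molecule) from at least 3 of 11 endothelial genes and when those genes made up at least 0.2% of its UMIs. It was also required to have a UMI from at most 1 of 11 genes of macrophages, stellate cells, fibroblasts and lymphocytes, called excluding genes below. Of 28336 nuclei with 200 to 5000 genes and at most 5% mitochondrial UMIs, 2303 met this rule. They were 600 of 8494 nuclei in the normal diet (ND) library and, in the libraries of the mice called STZ-HFHC 1 and STZ-HFHC 2, 820 of 8921 and 883 of 10921. Values given below as a series of 3 follow this order.

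Frozen liver was taken from 1 male C57BL/6 J mouse labelled normal and from 2 mice labelled with MASH-related liver fibrosis (MASH is metabolic dysfunction-associated steatohepatitis), each mouse giving 1 library. Both diseased mice had received 0.2 mg of streptozocin (STZ), which destroys the insulin-producing islet cells, at 3 days of age and a high-fat, high-cholesterol (HFHC) diet from 4 weeks of age. Injection and diet always went together, so their parts cannot be told apart, and the age at sampling was not given for these 3 mice in the sources used here. With a single ND mouse, a difference between conditions and a difference of that mouse or its library cannot be told apart either. The depth was 77617520 UMIs over 9424 barcodes for ND, 73942732 over 9923 for STZ-HFHC 1 and 72934861 over 11642 for STZ-HFHC 2.

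Sinusoidal endothelial cells line the capillaries of the liver, have pores and no continuous basement membrane, and clear waste molecules from the blood through scavenger receptors such as stabilin-2, the product of *Stab2*. They signal to their neighbours: Wnt ligands and R-spondin-3 from the cells near the central vein set the gene program of nearby hepatocytes, and BMP2 and BMP6 control hepcidin and so iron. In fibrosis these cells are known to lose their pores and gain features of other capillaries, which is called capillarization.

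The genes of the rule were high in the chosen nuclei by construction, and their levels are given as a description. *Stab2* stood at 1721, 2071 and 1652 CPM (counts scaled to an equal total in each sum), against 184, 131 and 152 CPM in the other nuclei of the same libraries, where other nuclei are those that met neither the rule nor its endothelial part. The summed level of the 11 endothelial genes was 4264, 6347 and 5319 CPM in the chosen nuclei and 471, 419 and 444 CPM in the other nuclei. *Stab2* itself was close in all 3 libraries, while *F8*, the gene of coagulation factor VIII, stood at 508 CPM in ND against 989 and 796 CPM in the STZ-HFHC mice. *Pecam1*, an adhesion molecule between endothelial cells, stood at 130, 401 and 337 CPM. The summed level of the 11 excluding genes was 194, 362 and 353 CPM in the chosen nuclei and 326, 752 and 569 CPM in the other nuclei.

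**Figure D1:**
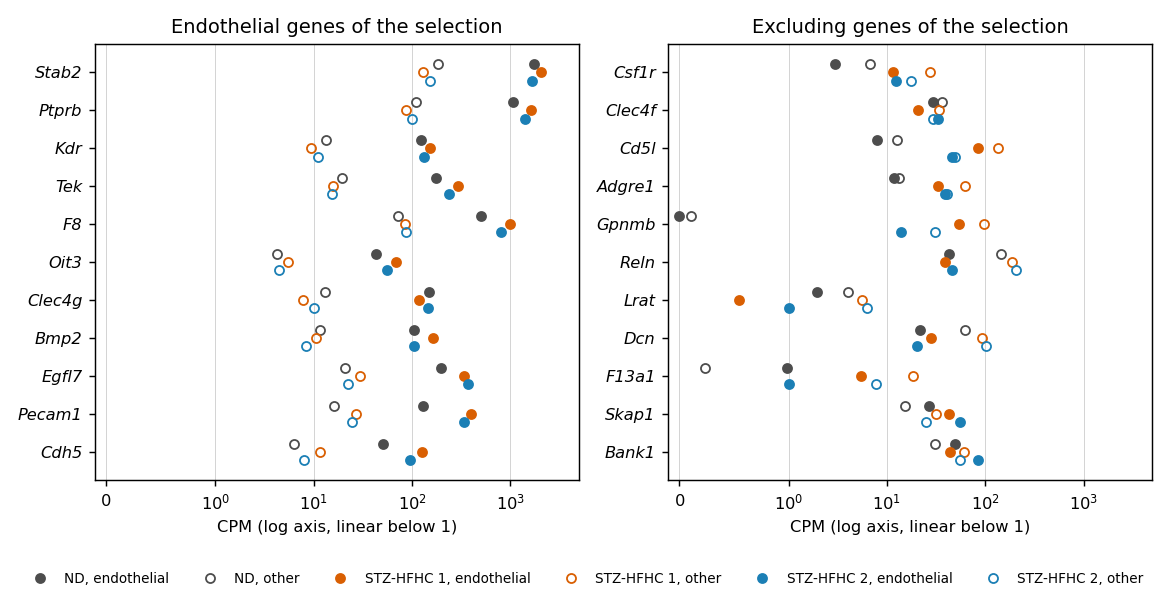
Level of the 11 endothelial and the 11 excluding genes of the rule (rows) in CPM on a log axis that is linear below 1, in the chosen endothelial nuclei (filled points) and the other nuclei (open points) of each library. Every endothelial gene is higher in the filled than in the open points of its library, while *Gpnmb*, with no UMI in the ND endothelial nuclei, stood at 54.4 and 13.8 CPM in those of the STZ-HFHC mice.

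Some genes that the rule did not use were also higher in the endothelial nuclei, again as a description. *Bmp6* stood at 244, 294 and 244 CPM in the endothelial nuclei of ND, STZ-HFHC 1 and STZ-HFHC 2 and at 25.1, 33.4 and 24.4 CPM in the other nuclei. *Stab1*, the sister scavenger receptor of *Stab2* and chosen here after its values were seen, stood at 142, 216 and 223 CPM against 19.5, 30.6 and 25.3 CPM. *Cdh13*, a cadherin of liver endothelium, stood at 171, 457 and 332 CPM against 13.6, 18.9 and 16.9 CPM. Each of these 3 genes was several times higher in the endothelial than in the other nuclei of every library. Not all genes of the lists used below were. *Robo1*, on the pericentral list with *Cdh13*, stood at 168, 450 and 332 CPM against 168, 320 and 336 CPM. *Colec12*, on the list of scavenger and endocytic receptors, stood at 413, 209 and 277 CPM against 528, 364 and 430 CPM.

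Endothelial nuclei made up 7.06% of the kept nuclei in ND (exact 95% binomial interval 6.53 to 7.63%), 9.19% in STZ-HFHC 1 (8.60 to 9.81%) and 8.09% in STZ-HFHC 2 (7.58 to 8.61%), where intervals cover counting error only. Both STZ-HFHC shares were above the ND share, the mean ratio to ND was 1.22 with an SD of 0.111 between the 2 mice, and 1 against 2 mice cannot reach an exact permutation p under 0.333. The ratio moved with the excluding part of the rule. With that part dropped it was 1.71, with ND at 10.9% and the STZ-HFHC mice at 20.1% and 17.3%. With no excluding gene allowed it was 0.874, with ND at 4.25% and the STZ-HFHC mice at 3.98% and 3.45%. Nuclei that met the endothelial part but had 2 or more excluding genes were 3.86%, 10.9% and 9.23% of the 3 libraries, and their median depth was 5908, 3269 and 2753 UMIs. The endothelial nuclei had median depths of 1778, 1592 and 1685 UMIs, and the other nuclei of 4159, 3438 and 4621 UMIs. Several groups of endothelial nuclei with genes of other cell types, described below as subclusters, came mostly from the STZ-HFHC mice.

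**Figure D2:**
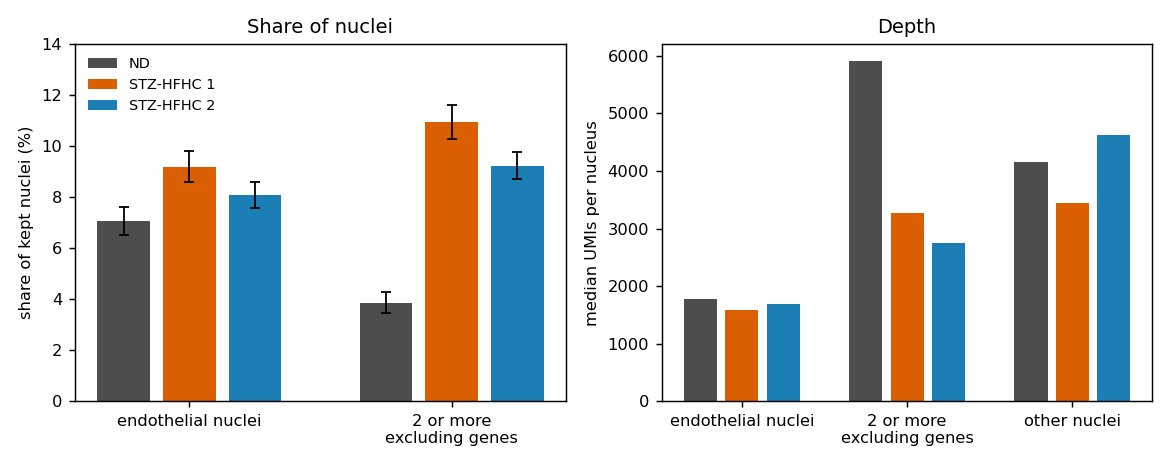
Left, share of kept nuclei (%) that met the endothelial rule or met its endothelial part but had 2 or more excluding genes, per library, with exact 95% binomial intervals as error bars. Right, median UMIs per nucleus of these classes and of the other nuclei. Endothelial shares lie between 7.06% and 9.19%, while the nuclei with 2 or more excluding genes rise from 3.86% in ND to 10.9% and 9.23%.

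The edge of the rule was well filled. Members with exactly 3 endothelial genes were 140 of 600, 199 of 820 and 233 of 883, and members with 1 excluding gene were 239, 465 and 506. Just outside, 152, 333 and 401 nuclei missed the rule by having 2 excluding genes, 122, 174 and 216 by having 2 endothelial genes, and 841, 609 and 1058 by a share of endothelial UMIs under 0.2%. The lowest endothelial share inside the rule was 0.200%, 0.200% and 0.201% of UMIs, and the highest outside was 0.200%, 0.198% and 0.200%. No barcode was shared between libraries among the members, and over all barcodes 29, 30 and 32 were shared by the 3 pairs of libraries.

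RNA of other cell types was present in these nuclei and differed between the libraries. Over 20 hepatocyte markers, of which *Cps1* (urea cycle) had the most UMIs and none was at 0, the summed level was 22142 CPM in ND but 11228 and 13135 CPM in the STZ-HFHC mice, against 25367, 16682 and 17586 CPM in the other nuclei. Of these markers, 16 of 20 fell in the endothelial nuclei by the test described next and 0 rose, with a median log2 change of −1.35. Over all genes tested 9.18% fell and 8.36% rose. *Alb*, the albumin gene, stood at 2764, 1586 and 1490 CPM, and at 3006, 2349 and 1825 CPM in the other nuclei. *Trf* (transferrin) stood at 2763, 746 and 615.1 CPM, and at 3120, 1098 and 764 CPM in the other nuclei. The drop of hepatocyte RNA was thus measured inside and outside the endothelial nuclei, and its part in the results below was not tested.

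Macrophage RNA moved the other way. Over 18 macrophage markers, 5 of them in the rule, the summed level was 545, 1271 and 1104 CPM in the endothelial nuclei and 289, 1066 and 583 CPM in the other nuclei, and *Mertk* had the most UMIs. The other 4 (*Marco*, *Cd68*, *Itgax* and *Trem2*) had too few UMIs to test. Of the 9 that could be tested outside the rule, 6 rose and 0 fell, with a median log2 change of 2.03, beside 8.36% and 9.18% of all genes. On the endothelial scale described next 5 of the 6 were called, with a median of 1.31 over the list. *Ptprc*, the gene of the leukocyte marker CD45, stood at 57.6, 278 and 236 CPM in the endothelial nuclei and at 31.7, 185 and 103 CPM in the other nuclei. *Cybb*, the NADPH oxidase of phagocytes, stood at 6.89, 56.1 and 32.2 CPM, and at 4.65, 50.6 and 22.2 CPM in the other nuclei. Over 14 lymphocyte markers, 2 of them in the rule, the summed level was 254, 442 and 650 CPM. Of the 7 tested outside the rule, 4 rose (8.36% over all genes), 3 of them also on the endothelial scale. In sums over nuclei, fewer nuclei with a transcript and less of it per nucleus cannot be told apart, and the part of leukocyte RNA in the results below was not tested.

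UMIs were summed over the endothelial nuclei of each library, and 11155 genes with at least 30 UMIs were compared between the 2 STZ-HFHC mice and the ND mouse with the quasi-likelihood test of edgeR at an adjusted p of 0.05. The test had 1 residual degree of freedom, and the ND mouse was assumed to vary like the STZ-HFHC mice. Its estimate of spread was moderated across genes, with 10.5 prior degrees of freedom. It called 933 genes higher (8.36% of those tested) and 1024 lower (9.18%), with a median log2 change of 0.01 over all genes. Scaling by total UMIs alone gave 1097 higher and 757 lower. DESeq2 called 599 genes, and with nuclei thinned to 1000 UMIs before the rule edgeR called 0, with 1322 at an unadjusted p under 0.05. Because hepatocyte RNA fell, a further scale was set by 521 genes that were at least 3-fold higher in endothelial than in other nuclei of each library, a choice made after the data were seen. On this endothelial scale the library scaling shifted by −0.70 on the log2 scale, fitted changes of genes with no ND UMI moved by less, and 310 genes were higher (2.78%) and 3673 lower (32.9%). Higher on both scales were 307 genes (2.75%) and lower on both 1024 (9.18%). As the shift was downward, genes lower on the scale of all genes were favored to be lower on both. Counts of genes lower on both scales, here and below, therefore add no support. Below, rose and fell are said of genes called on the scale of all genes, and a rise that was not called on the endothelial scale is said to be so.

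The genes that led the comparison were chosen by size and by their level against other nuclei. By a rule of size, at least 50 UMIs and a change of at least 2-fold to the same side in each STZ-HFHC mouse, 897 of 9725 genes were higher (9.22%) and 545 lower (5.6%). Of the 704 genes that passed both this rule and the test on the higher side, 251 were also at least 2-fold above the other nuclei of their library in both STZ-HFHC mice, and the 12 with the largest change in the mouse where it was smaller are named here. All 12 rose on both scales.

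*Ednrb*, the gene of the type B endothelin receptor (chr14:103814625-103844402), had a level of 6.89 CPM in the ND endothelial nuclei and of 111 CPM in those of each STZ-HFHC mouse. In the other nuclei the gene was at 14.6, 22.8 and 27.2 CPM. That the STZ-HFHC endothelial nuclei lay above the other nuclei was part of how the 12 genes were chosen and is no finding. The log2 change was 3.87 ± 0.34 (SE, adjusted p = 8.9e-05), and 3.16 on the endothelial scale. Over the alternative settings it ranged from 2.08 to 4.61, the lowest with the excluding part of the rule dropped, and with nuclei thinned to 1000 UMIs before the rule it was 2.81 and not called (unadjusted p = 0.0055). Nuclei that met the endothelial part but had 2 or more excluding genes stood at 34.1, 107 and 79.7 CPM. Its change in endothelial nuclei exceeded that in other nuclei by 3.16 ± 0.34 on the log2 scale (SE, adjusted p = 2.4e-05 for the term of class by condition in edgeR), a test that is not independent of that choice, here and for the other genes chosen by level against other nuclei. With every nucleus thinned to 1000 UMIs, 1.01% of the ND endothelial nuclei had an *Ednrb* UMI (exact 95% interval 0.330 to 2.35%), against 9.79% (7.73 to 12.2%) and 9.68% (7.72 to 11.9%) in the STZ-HFHC mice. The other nuclei, at the same depth, gave 1.62%, 3.68% and 4.15%. Before thinning the shares in endothelial nuclei were 2.17%, 17.6% and 16.1%. Thinning left out 107, 95 and 77 endothelial nuclei with under 1000 UMIs.

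*Bmper*, which encodes a secreted regulator of BMP signaling (chr9:23223076-23485200), stood at 14.8, 142 and 157 CPM, a log2 change of 3.21 ± 0.30 (SE, adjusted p = 0.000102). Its level also differed in the other nuclei, with 4.18, 42.3 and 69.6 CPM, and the change did not pass the test of a difference between the classes (−0.44 ± 0.36, adjusted p = 0.611). *Cfap69*, a gene of cilia and flagella (chr5:5579278-5664239), stood at 6.40, 89.1 and 78.6 CPM, a log2 change of 3.57 ± 0.37 (SE, adjusted p = 0.000159). Thinned to 1000 UMIs, 0.609%, 8.28% and 7.32% of endothelial nuclei had a *Cfap69* UMI, against 0.155%, 1.32% and 1.01% of other nuclei, and the difference between the classes did not pass (1.38 ± 0.47, adjusted p = 0.0943). In both genes the 2 STZ-HFHC values lay close together and far above ND.

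*Thsd7a*, a membrane protein with thrombospondin repeats that is tied to endothelial migration (chr6:12311610-12749410), stood at 8.86, 96.2 and 104 CPM, a log2 change of 3.36 ± 0.33 (SE, adjusted p = 0.000142). Its change exceeded that of other nuclei by 1.48 ± 0.42 (SE, adjusted p = 0.0434), a difference that was past 0.05 in 5 of 10 alternative settings. *Fabp4*, a fatty acid binding protein of endothelium and fat cells (chr3:10204088-10208576), stood at 8.36, 74.2 and 73.0 CPM, a log2 change of 3.00 ± 0.35 (SE, adjusted p = 0.000369), and at 1.25, 10.3 and 7.37 CPM in the other nuclei. *D5Ertd615e*, a long noncoding RNA (chr5:45009171-45424402), stood at 2.46, 66.5 and 57.7 CPM, a log2 change of 4.49 ± 0.47 (SE, adjusted p = 0.000177). Neither *Fabp4* nor *D5Ertd615e* passed the test of a difference between the classes (adjusted p = 0.854 and 0.195). The remaining genes had few UMIs in ND. *Nav3*, a neuron navigator, had none there and 17.6 and 9.19 CPM in the STZ-HFHC mice, at least 11.9-fold and 6.22-fold higher when 3 counts are allowed in ND. *Myrip*, a partner of myosin and Rab27 on secretory granules, had 3 ND UMIs and was 16.0-fold (counting interval 5.13 to 80.7) and 19.7-fold (6.41 to 98.4) higher. *Gpr160* had 1 ND UMI and was 31.3-fold (5.17 to 1280) and 40.5-fold (6.85 to 1638) higher. *Nlgn2*, *Ly6a* and *Gvin1* were the others, from 1.48 to 2.46 CPM in ND and from 16.3 to 42.9 CPM in the STZ-HFHC mice. With nuclei thinned to 1000 UMIs before the rule the log2 change went from 3.36 to 1.64 for *Ly6a* and from 3.58 to 1.68 for *Gvin1*. That of *Nlgn2* did not shrink, and none of these was called there.

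**Figure D3:**
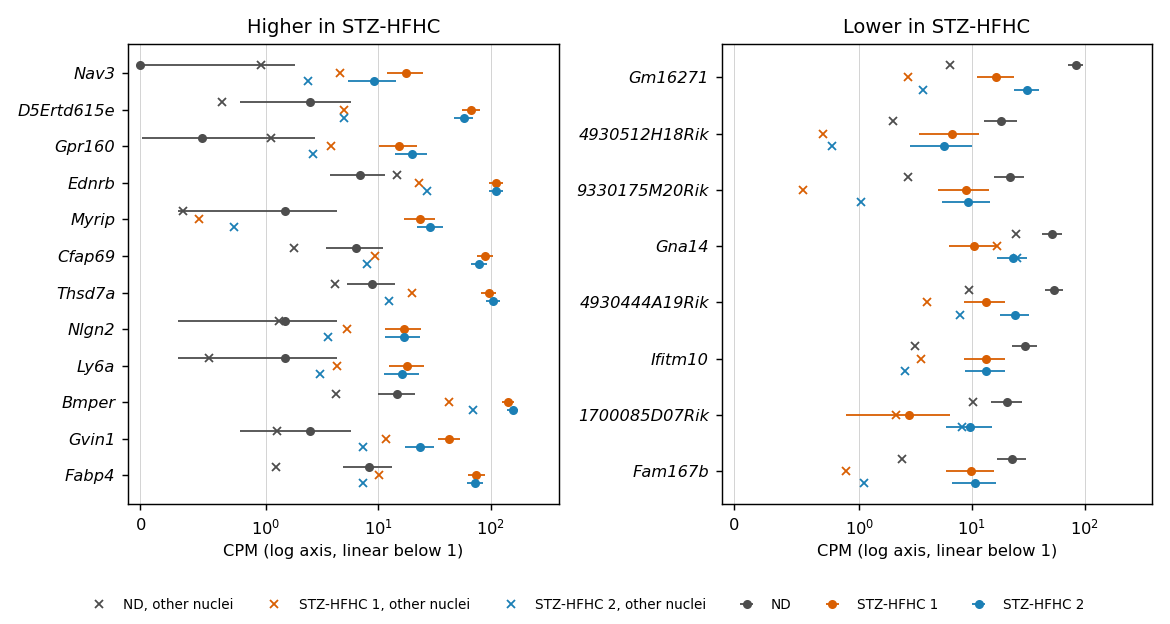
Level in CPM (log axis, linear below 1) of the genes that led the comparison, in the endothelial nuclei of each library (points with exact 95% Poisson intervals for counting error) and in the other nuclei (crosses). In all 12 genes on the left the STZ-HFHC points lie above the ND point, as for *Ednrb* at 111 and 111 against 6.89 CPM, and in all 8 on the right they lie below it.

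On the lower side only 8 of the 526 genes past the test and the size passed the same rule, as the rest were less than 2-fold above the other nuclei in ND. *Gna14*, a G protein alpha subunit (chr19:16435762-16610820), stood at 51.7 CPM in ND against 10.4 and 23.0 CPM in the STZ-HFHC mice, a log2 change of −1.75 ± 0.39 (SE, adjusted p = 0.0108). In the other nuclei it stood at 24.7, 16.6 and 25.3 CPM, and its change differed from theirs by −1.48 ± 0.30 (SE, adjusted p = 0.00756). *Gm16271* (chr10:86972216-87028015), an antisense gene, stood at 83.2, 16.5 and 30.6 CPM, a log2 change of −1.94 ± 0.33 (SE, adjusted p = 0.00304). Its locus overlaps that of *Stab2* (chr10:86841198-87008025), a gene of the rule. The others were the antisense genes *4930512H18Rik*, *9330175M20Rik*, *4930444A19Rik* and *1700085D07Rik* and the coding genes *Ifitm10* and *Fam167b*, at 18.2 to 53.6 CPM in ND and 2.75 to 24.0 CPM in the STZ-HFHC mice. The counting by strand was not given in the sources used here, so reads of the antisense genes and their partners may not be separable. *Ifitm10*, *Fam167b*, *9330175M20Rik* and *1700085D07Rik* lost their call in 5 or 6 alternative settings. *Gna14* lost its call with no excluding gene allowed, with nuclei thinned to 1000 UMIs and by DESeq2. *4930444A19Rik* lost its call with thinning and by DESeq2, and *Gm16271* and *4930512H18Rik* with thinning alone.

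Genes of vascular tone and coagulation, a list that includes *Ednrb*, were higher or not called. Of 12 tested 6 rose and 0 fell, beside 8.36% and 9.18% of all genes, with a median log2 change of 1.22 beside 0.01, and 4 of the 6 were called on both scales, beside 2.75% of all genes. *Edn1*, the gene of endothelin-1, the ligand of the type B receptor, stood at 1.97, 15.4 and 15.8 CPM, a log2 change of 2.82 ± 0.62 (SE, adjusted p = 0.00962). *Vwf*, von Willebrand factor, which larger vessels normally carry and sinusoids mostly lack, stood at 8.86, 52.8 and 82.7 CPM, a log2 change of 2.80 ± 0.42 (SE, adjusted p = 0.0014). The change of *Vwf* was 1.70 (unadjusted p = 0.14) with nuclei thinned to 1000 UMIs before the rule, and its difference from other nuclei did not pass (adjusted p = 0.285). The receptor, its ligand and *Vwf* were higher in both STZ-HFHC mice than in ND.

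The list of large vessel and capillary genes gave 5 higher and 0 lower of 10 tested (8.36% and 9.18% over all genes), with a median log2 change of 1.48 (1.32 with genes that had no ND UMI set at their bound). Of the 5, 4 were called on both scales (2.75% over all genes). *Cd34*, a sialomucin of continuous capillaries, had no UMI in the ND endothelial nuclei and 14.8 and 7.15 CPM in the STZ-HFHC mice, at least 10.1-fold and 4.84-fold higher. *Cd9*, a tetraspanin, rose from 18.7 CPM to 67.1 and 56.7 CPM (log2 change 1.59 ± 0.32, adjusted p = 0.0067), but was not called on the endothelial scale. *Plpp3*, a phosphatase of signaling lipids, stood at 978, 894 and 911 CPM, and *Emcn*, the endothelial mucin endomucin, at 61.5, 113 and 89.8 CPM, and neither was called on the scale of all genes. On the endothelial scale *Plpp3* was called lower (−0.95, adjusted p = 0.014).

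Ligands that sinusoidal cells send to hepatocytes and stellate cells differed in part. Of 12 tested Wnt, R-spondin and BMP ligands and related factors, 6 rose and 1 fell (8.36% and 9.18% over all genes), with a median log2 change of 1.55, and 3 of the 6 were called on both scales (2.75% over all genes). *Rspo3*, the R-spondin that strengthens Wnt signaling around the central vein, stood at 34.9, 151 and 104 CPM, a log2 change of 1.73 ± 0.30 (SE, adjusted p = 0.00324), and 24.1, 33.6 and 40.2 CPM in the other nuclei. Its change exceeded that of other nuclei by 1.17 ± 0.29 (SE, adjusted p = 0.0212). *Wnt9b* and *Wnt2*, the pericentral Wnt ligands, are named after their values were seen. *Wnt9b* stood at 1.97, 12.1 and 11.2 CPM, a log2 change of 2.40 ± 0.66 (SE, adjusted p = 0.0277) that was not called on the endothelial scale. *Wnt2* stood at 35.9, 53.9 and 36.2 CPM and was not called, and neither was *Bmp6* (log2 change 0.01 ± 0.23, adjusted p = 0.986). On the endothelial scale the change of *Bmp6* was −0.71. With nuclei thinned to 1000 UMIs before the rule the change of *Rspo3* was 0.29 (unadjusted p = 0.57) and its difference from other nuclei −0.34, so both depend on that step. *Angptl4*, a secreted lipase inhibitor, fell from 65.4 CPM to 25.8 and 21.9 CPM (log2 change −1.58 ± 0.29, adjusted p = 0.00431), and stood at 70.0, 40.5 and 34.6 CPM in the other nuclei.

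Some landmark genes of either end of the lobule rose and none fell. Over all genes 8.36% rose, 9.18% fell and 2.75% rose on both scales. Of 10 tested pericentral landmarks 5 rose and 0 fell (2 on both scales, *Fabp4* and *Rspo3*), with a median log2 change of 1.41. The summed level of the 12 pericentral landmarks was 503 CPM in ND (exact 95% Poisson interval 473 to 535), 1375 in STZ-HFHC 1 (1321 to 1430) and 1002 in STZ-HFHC 2 (958 to 1047), a log2 ratio of 1.22 as the mean of the 2 mice. Of 12 tested periportal landmarks 5 rose and 0 fell (3 on both scales), with a median log2 change of 1.01. Their summed level was 441 CPM in ND (413 to 471), 920 in STZ-HFHC 1 (876 to 965) and 702 in STZ-HFHC 2 (665 to 740), a log2 ratio of 0.86. On the endothelial scale the medians of the 2 lists were 0.69 and 0.29.

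Among pericentral landmarks, *Cdh13* (levels given above) had a log2 change of 1.08 ± 0.26 (SE, adjusted p = 0.0155) that was not called on the endothelial scale, and exceeded the change in other nuclei by 0.72 ± 0.17 (SE, adjusted p = 0.0174), a difference that passed in 7 of 10 alternative settings and turned to −0.14 with nuclei thinned to 1000 UMIs before the rule. *Kit*, the receptor of stem cell factor, stood at 62.5, 121 and 80.1 CPM and was not called. Among periportal landmarks, *Adgrg6*, an adhesion G protein-coupled receptor, stood at 8.86, 55.0 and 45.4 CPM, a log2 change of 2.36 ± 0.38 (SE, adjusted p = 0.00226). *Efnb2*, the arterial ephrin-B2, stood at 35.4, 104 and 84.2 CPM, a log2 change of 1.28 ± 0.28 (SE, adjusted p = 0.00935) that was not called on the endothelial scale. *Gja5*, the connexin of arterial endothelium, had no UMI in ND and 6.60 and 10.2 CPM in the STZ-HFHC mice, at least 4.47-fold and 6.92-fold higher. *Lama4*, a laminin chain, stood at 128, 201 and 164 CPM and was not called.

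Scavenger and endocytic receptors went both ways. Of 12 tested outside the rule, 2 rose and 3 fell (8.36% and 9.18% over all genes), with a median log2 change of −0.04 (−0.75 on the endothelial scale). *Cd36*, the fatty acid and oxidized lipoprotein receptor, stood at 66.9 CPM in ND against 571 and 416 CPM in the STZ-HFHC mice, a log2 change of 2.75 ± 0.29 (SE, adjusted p = 0.000195), and held on both scales. In the other nuclei it stood at 22, 325 and 214 CPM, a change that was larger than in endothelial nuclei by 0.79 on the log2 scale (difference −0.79 ± 0.18, SE, adjusted p = 0.014, past 0.05 in 2 of 10 alternative settings). *Mrc1*, the mannose receptor, stood at 375, 613 and 487 CPM (log2 change 0.42 ± 0.24, adjusted p = 0.268), and *Stab1* had a log2 change of 0.49 ± 0.22 (SE, adjusted p = 0.161). *Lyve1*, the hyaluronan receptor, rose from 19.2 CPM to 59.4 and 43.4 CPM (log2 change 1.28 ± 0.35, adjusted p = 0.0262), but was not called on the endothelial scale. *Lrp1*, an endocytic receptor for lipoprotein remnants, stood at 343, 178 and 200 CPM (log2 change −0.99 ± 0.21, adjusted p = 0.00921), and at 426, 270 and 273 CPM in the other nuclei.

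Lipid genes split by direction. Of 31 tested, 9 rose (6 on both scales) and 10 fell (10 on both), beside 8.36% (2.75% on both scales) and 9.18% (9.18%) of all genes, with a median log2 change of −0.55. The cholesterol exporters rose: *Abcg1* stood at 16.2, 103 and 79.1 CPM, a log2 change of 2.35 ± 0.33 (SE, adjusted p = 0.00089), and *Abca1* at 255, 629 and 614.6 CPM, a log2 change of 1.15 ± 0.23 (SE, adjusted p = 0.00673) that was not called on the endothelial scale. They stood at 4.83, 54.3 and 27.2 CPM and at 275, 682 and 569 CPM in the other nuclei, and neither passed the test of a difference between the classes (adjusted p = 0.408 and 0.953). *Acsl1*, the acyl-CoA synthetase that is abundant in hepatocytes, stood at 3088, 445 and 450 CPM, a log2 change of −2.92 ± 0.23 (SE, adjusted p = 4.6e-05). It stood at 3727, 863 and 713 CPM in the other nuclei. *Ppara*, the nuclear receptor of fatty acid oxidation, stood at 1226, 720 and 547 CPM (log2 change −1.08 ± 0.24, adjusted p = 0.0103), and at 1571, 1664 and 1056 CPM in the other nuclei, with a difference between the classes of −0.79 ± 0.14 (SE, adjusted p = 0.00341). *Acsl1* and *Ppara* were thus higher in the other than in the endothelial nuclei of every library, and the genes that rose included *Fabp4* and *Cd36*.

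Of 29 tested endothelial transcription factors 9 rose and 2 fell (8.36% and 9.18% over all genes), with a median log2 change of 0.41 (−0.30 on the endothelial scale), and only *Klf6* among the 9 was called on both scales. *Fli1*, an ETS factor of endothelium and leukocytes, stood at 183, 504 and 511 CPM, a log2 change of 1.34 ± 0.23 (SE, adjusted p = 0.00321) that was not called on the endothelial scale. *Klf6*, an early factor of vascular injury, stood at 8.86, 46.2 and 44.4 CPM (log2 change 2.21 ± 0.38, adjusted p = 0.00288), and at 4.26, 50.4 and 35.7 CPM in the other nuclei. *Hhex*, a homeobox factor shared by endothelium and hepatocytes, stood at 96.0, 47.3 and 50.02 CPM, a log2 change of −1.11 ± 0.24 (SE, adjusted p = 0.00952), and at 118, 59.6 and 54.3 CPM in the other nuclei. *Mecom*, a zinc finger factor of arterial endothelium that was not on the list and is named after its values were seen, had levels of 47.2, 309 and 374 CPM, a log2 change of 2.72 ± 0.27 (SE, adjusted p = 0.000142). In the other nuclei it stood at 7.85, 14.3 and 13 CPM, a difference between the classes of 1.98 ± 0.22 (SE, adjusted p = 2.4e-05).

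Of 10 tested VEGF and angiopoietin genes outside the rule, 3 rose and 1 fell (8.36% and 9.18% over all genes), with a median log2 change of 0.73, and of the 3 none was called on the endothelial scale (2.75% of all genes rose on both). *Flt4*, the VEGF-C receptor, stood at 77.3, 250 and 162 CPM (log2 change 1.28 ± 0.29, adjusted p = 0.0121), and *Eng*, the TGF-beta co-receptor endoglin, at 197, 392 and 363 CPM (0.81 ± 0.23, adjusted p = 0.0306). Of 26 tested TGF-beta and BMP response genes, 8 rose and 1 fell, beside the same shares of all genes, with a median of 0.59 (−0.13 on the endothelial scale), and 1 rose on both scales. *Smad6*, the inhibitory SMAD that BMP signals induce in endothelium, stood at 74.3, 255 and 188 CPM (log2 change 1.44 ± 0.27, adjusted p = 0.00445, not called on the endothelial scale). In the other nuclei it stood at 20.8, 30.6 and 22.7 CPM, and its change was larger in endothelial nuclei by 1.15 ± 0.19 (SE, adjusted p = 0.00161). Of 10 Notch pathway genes 2 rose and 0 fell, beside the same shares, with a median of 0.81 and 1 on both scales.

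Adhesion and leukocyte recruitment genes gave 6 higher and 2 lower of 19 tested outside the rule (8.36% and 9.18% over all genes), with a median log2 change of 1.05, and 3 of the 6 were called on both scales (2.75% over all genes). *Jam2*, a junctional adhesion molecule through which leukocytes pass, stood at 53.1, 197 and 156 CPM, a log2 change of 1.60 ± 0.26 (SE, adjusted p = 0.00244), and exceeded the change in other nuclei by 1.10 ± 0.24 (SE, adjusted p = 0.0101). *Itga4*, an integrin chain of leukocytes, stood at 20.2, 109 and 82.2 CPM and at 11.4, 55.9 and 36.3 CPM in the other nuclei (log2 change 2.11 ± 0.32 in endothelial nuclei, adjusted p = 0.00141), so that it was higher in both classes, as *Ptprc* was. *Cxcl12*, the chemokine of CXCR4, stood at 152, 28.0 and 27.1 CPM, a log2 change of −2.59 ± 0.24 (SE, adjusted p = 0.000102), and at 177, 45.3 and 45.7 CPM in the other nuclei.

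Of 16 tested basement membrane and matrix genes 2 rose (1 on both scales) and 3 fell (3 on both). The median log2 change was 0.72, and 0.004 on the endothelial scale. The shares over all genes were 8.36% higher and 9.18% lower. *Col4a1*, a chain of basement membrane collagen IV, stood at 65.9, 118 and 107 CPM (log2 change 0.64 ± 0.24, adjusted p = 0.0939) and was not called. *Col18a1* stood at 456, 135 and 138 CPM, a log2 change of −1.87 ± 0.21 (SE, adjusted p = 0.000259), and *Fn1* (fibronectin) at 727, 227 and 196 CPM, a log2 change of −1.92 ± 0.22 (SE, adjusted p = 0.000283). Both are also made by hepatocytes, and stood at 533, 228 and 257 CPM and at 840, 351 and 272 CPM in the other nuclei.

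Interferon and antigen presentation genes gave 9 higher and 0 lower of 23 tested (8.36% and 9.18% over all genes), with a median log2 change of 1.04, and 4 were called on both scales (2.75% over all genes). *Oas2*, an interferon-induced antiviral enzyme, stood at 1.97, 32.4 and 37.8 CPM, a log2 change of 3.99 ± 0.52 (SE, adjusted p = 0.000672), and at 2.65, 18.2 and 17.4 CPM in the other nuclei. *H2-Eb1*, a class II antigen presentation chain, stood at 2.95, 26.4 and 22.5 CPM (log2 change 2.89 ± 0.52, adjusted p = 0.00353). *Ciita*, the master regulator of class II genes, stood at 2.46, 22.5 and 21.9 CPM (3.01 ± 0.54, adjusted p = 0.00359). Both class II genes belong to antigen-presenting leukocytes too, whose *Ptprc* moved with them.

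Of the further lists, insulin signaling and glucose handling gave 4 higher and 1 lower of 21 tested (median log2 change 0.66, −0.05 on the endothelial scale, 0 higher on both scales). Stress and hypoxia genes gave 4 higher and 2 lower of 25 (median 0.44, −0.28 on the endothelial scale, 3 higher on both scales), and cell division genes 1 higher and 0 lower of 9 (median 1.00, 0 on both scales). Over all genes 8.36% were higher, 9.18% lower and 2.75% higher on both scales. The stellate and fibroblast markers gave 2 higher and 0 lower of 6, the cholangiocyte and mesothelial markers 2 and 0 of 5, and the lymphatic endothelial markers 2 higher and 1 lower of 4. Their medians were 0.59, 0.60 and 0.78, and −0.12, −0.11 and 0.05 on the endothelial scale. Called higher on both scales were 0, 1 and 0 genes of these lists.

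**Figure D4:**
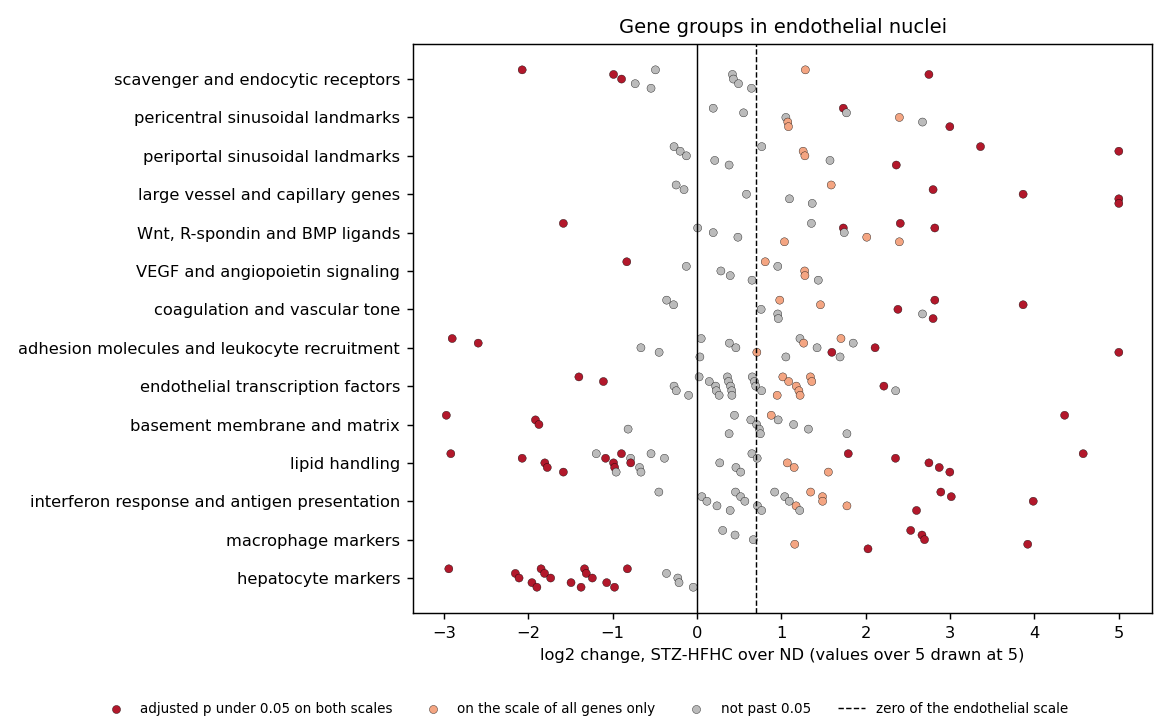
Log2 change in endothelial nuclei of STZ-HFHC over ND for each tested gene (points) of 14 gene lists (rows), with values over 5, all from genes with no UMI in ND, drawn at 5. Dark points were called on both scales, light red points on the scale of all genes alone and grey points on neither, and the dashed line at 0.70 is where the endothelial scale has its 0. Hepatocyte markers lie at or below 0 with 16 of 20 called, and macrophage markers lie above it with 6 of 9 called.

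The change in endothelial nuclei was then compared with that in the other nuclei, with 6 sums in 1 edgeR model. Of 11155 genes, 544 passed (4.88%), of which 130 had a positive difference, endothelial nuclei minus other nuclei (1.17%), and 414 a negative one (3.71%), with a median of −0.13, and with total UMIs as the scale the counts were 98 and 82. The balance turned in other settings, with 56 positive and 9 negative without limits on genes and mitochondrial counts, 129 and 20 with no excluding gene, 128 and 43 at 100 UMIs or more, and 108 and 70 in nuclei at or under the median hepatocyte marker share. A positive difference can also come from a drop in the other nuclei alone. *Ednrb* and *Mecom* had the smallest p of the positive differences and passed in 10 of 10 alternative settings. *Nav3* passed too (adjusted p = 0.0494, and in 1 of 6 alternative settings), but its size is not given since no UMI was seen in ND. *Cdh4*, a cadherin best known from the nervous system and named after its values were seen, stood at 72.3, 265 and 192 CPM in endothelial nuclei and at 17.7, 12 and 14.1 CPM in the other nuclei. Its difference between the classes was 2.01 ± 0.24 on the log2 scale (SE, adjusted p = 5.8e-05) and passed in 9 of 10 settings, as did those of *Jam2* and *Smad6*. With nuclei thinned to 1000 UMIs before the rule the differences were 2.20 for *Ednrb*, 1.48 for *Mecom*, 1.05 for *Cdh4*, 0.54 for *Smad6* (unadjusted p = 0.06) and 0.08 for *Jam2* (unadjusted p = 0.83).

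The endothelial nuclei were clustered among themselves without batch correction, which gave 12 subclusters that are described and not tested. Subclusters 1 and 5 held 263 and 261 of the 600 ND nuclei and 3 and 0 nuclei of the STZ-HFHC mice, while subcluster 3 held 443 and 397 nuclei of the 2 STZ-HFHC mice and 5 of ND. ND and STZ-HFHC nuclei thus hardly mixed, and the 2 STZ-HFHC mice did. Subclusters 1 and 5, with most of the ND nuclei, were led by genes that include hepatocyte transcripts, such as *Serpina1e* and *Mup3* in subcluster 1 and *Bhmt* and *Elovl3* in subcluster 5. Subcluster 3 was led by the hemoglobin genes *Hbb-bs*, *Hba-a2* and *Hba-a1*, with *Vstm4* and *Cfap69* next. The hepatocyte markers used for the subclusters summed to 15242 CPM in subcluster 1, 14360 in subcluster 5 and 8201 in subcluster 3. Subcluster 5 had a median of 4606 UMIs per nucleus against 1211 in subcluster 1 and 1494 in subcluster 3. It held 1381534 of the 2032292 UMIs of the ND endothelial nuclei, and so most of the ND sum. The part of subcluster 5 in the changes given above was not tested. *Stab2* stood at 3208, 1375 and 2733 CPM in subclusters 1, 5 and 3, and *Ednrb* at 7.38, 2.90 and 120 CPM.

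Several further subclusters carried genes of other cell types beside the endothelial ones. Subcluster 4 (13, 113 and 142 nuclei of the 3 libraries) was led by leukocyte genes such as *Gpr141* and *Runx2*. Subcluster 6 (6, 12 and 48 nuclei) was led by the B cell genes *Pax5* and *Ebf1*, and subcluster 8 (7, 37 and 58 nuclei) by the T cell genes *Skap1* and *Bcl11b*. Subcluster 2 (32, 9 and 17 nuclei) was led by *Ccbe1* and *Reln*. Subcluster 11 (3, 10 and 12 nuclei) was led by genes that include the bile duct genes *Bicc1* and *Pkhd1*, and subcluster 9 (2, 81 and 51 nuclei) by mitochondrial genes. In subcluster 12 (0, 68 and 93 nuclei) 45.3% of the nuclei were among the highest 8% of doublet scores of their library, against 0.592% in subcluster 3. Subclusters 4, 6, 8, 9, 11 and 12 thus held mostly STZ-HFHC nuclei. Their part in the shares of endothelial nuclei and in the levels given above was not tested. For these subclusters, and for subclusters 1 and 5, the label of endothelial nuclei rests on the rule. Subclusters 1 and 5 differed in genes outside the rule. *Mrc1* stood at 769 CPM in subcluster 1 and 268 CPM in subcluster 5, against 809 CPM in subcluster 3. *Cdh4* stood at 140 and 55.0 CPM, against 318 CPM in subcluster 3.

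Subclusters 7 and 10 stood apart by genes of larger vessels. Subcluster 7 (6 ND, 22 STZ-HFHC 1 and 36 STZ-HFHC 2 nuclei) was led by *Adamtsl1*, *Eln* (elastin), *Rspo3* and *Vwf*, and subcluster 10 (2, 24 and 27 nuclei) by *Sulf1*, *Adgrg6*, *Thsd7a* and *Mecom*. They held 84.9% of the *Vwf* UMIs of the STZ-HFHC endothelial nuclei, 88.4% of those of *Thsd7a*, 92.0% of *Myrip*, 81.4% of *Edn1*, 70.4% of *Adgrg6*, 66.3% of *Mecom* and 57.8% of *Rspo3*. By contrast they held 23.6% of the *Ednrb*, 16.9% of the *Fabp4*, 7.77% of the *Cd36*, 6.53% of the *Bmper*, 5.70% of the *Cdh4* and 4.11% of the *Cfap69* UMIs. The first set of genes thus had most of its UMIs in 2 small subclusters, and the second set had most of them elsewhere.

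With subclusters 7 and 10 left out, a choice made after their genes were seen, *Vwf* stood at 2.97, 13.6 and 8.88 CPM and *Thsd7a* at 2.97, 16.0 and 9.44 CPM. *Edn1* at 0.495, 4.14 and 2.22 CPM and *Myrip* at 0.99, 2.96 and 1.67 CPM had too few UMIs left for a ratio. *Adgrg6* stood at 7.42, 18.9 and 13.3 CPM. *Mecom* stood at 40.1, 138 and 112 CPM, *Ednrb* at 6.43, 99.9 and 83.8 CPM and *Fabp4* at 6.43, 67.4 and 65.0 CPM. *Bmper* stood at 14.4, 145 and 158 CPM, *Cd36* at 66.3, 575 and 409 CPM and *Cfap69* at 6.43, 93.4 and 80.5 CPM. In all of these the STZ-HFHC mice were still above ND. The log2 ratios to ND of the 2 mice went from 2.54 and 3.19 to 2.11 and 1.51 for *Vwf*, from 3.41 and 3.52 to 2.34 and 1.59 for *Thsd7a*, and from 2.6 and 2.33 to 1.32 and 0.83 for *Adgrg6*. For *Wnt9b*, with few UMIs, they went from 2.48 and 2.37 to 0.55 and 1.08. For *Bmper* they went from 3.25 and 3.39 to 3.32 and 3.44. With only subclusters 1, 3 and 5 kept, some genes not called above had larger ratios than over all endothelial nuclei. They were 1.18 and 0.95 (from 0.71 and 0.38) for *Mrc1*, 1.08 and 1.13 (from 0.60 and 0.65) for *Stab1* and 1.29 and 1.28 (from 0.84 and 0.69) for *Col4a1*. Those of *Thsd7a* and *Mecom* were smaller. In this subset ND nuclei came almost all from subclusters 1 and 5, and these ratios were not tested. Subcluster 5 gave 1381534 of the 1790559 ND UMIs of the subset. *Mrc1* stood at 268 CPM in subcluster 5 but at 769 CPM in subcluster 1, close to the 809 CPM of subcluster 3. The larger ratios therefore depend on which ND nuclei carry the UMIs.

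**Figure D5:**
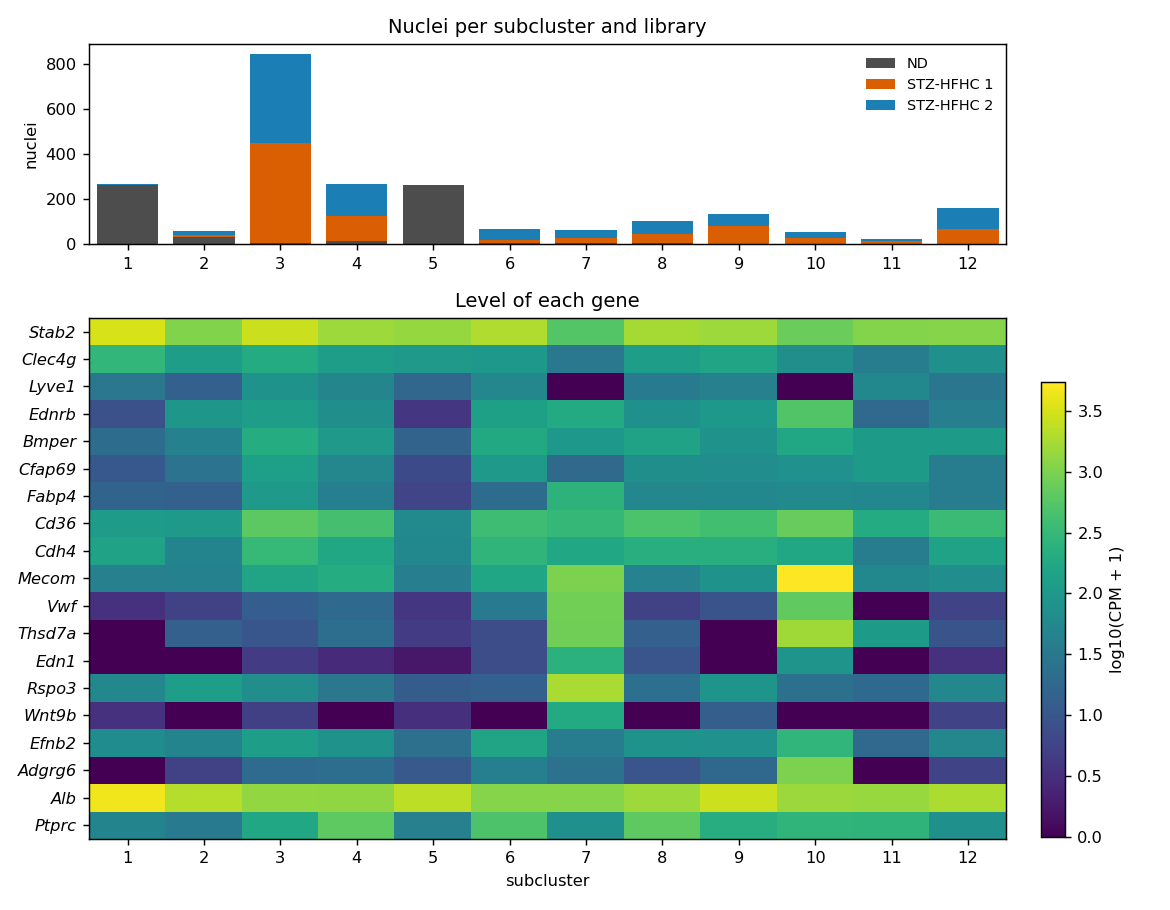
Top, number of endothelial nuclei of each library in the 12 subclusters. Bottom, level of 19 genes in each subcluster as log10(CPM + 1), in color. *Vwf*, *Thsd7a* and *Edn1* are highest in subclusters 7 and 10, *Mecom* reaches 5413 CPM in subcluster 10, and *Ednrb* is at 120 CPM in subcluster 3 against 7.38 and 2.90 CPM in subclusters 1 and 5.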

How the data were processed

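Nuclei from frozen liver were profiled by 10x droplet sNuc-Seq, with 1 library per mouse. The authors deposited whole-number UMI counts per gene and barcode, made with Cell Ranger 7.0.1 against mm10 per the submitters' processing notes and not normalized. The step that filtered barcodes to cells, the counting of intronic reads and the use of strand are not given in the sources used here.

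Nuclei with 200 to 5000 genes and at most 5% mitochondrial UMIs were kept, and the rule given above was applied. The members and gene lists were chosen with earlier results of these data known. Counts were summed per library, scaled by TMM (trimmed mean of M values) and tested with edgeR 4.0.16 (R 4.3.3, quasi-likelihood, Benjamini-Hochberg adjustment, genes with at least 30 UMIs). The term of class by condition was tested on 6 sums with the library as a block. Changes are log2 values, and 0.5 was added to counts in ratios. The script was tested on simulated data. Each library is 1 mouse, so p-values rest on the spread between 2 STZ-HFHC mice, moderated across genes by edgeR. The prior degrees of freedom from all genes were 10.5 for the change and 22.4 for the term of class by condition. The residual degree of freedom was 1, so the p-values draw mainly on spread pooled across genes. The smallest exact permutation p for 1 against 2 mice is 0.333. Intervals cover counting error only.

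Named were up to 12 higher and 12 lower genes past an adjusted p of 0.05, with at least 50 UMIs, a log2 ratio of 1 or more in size, to the same side for either STZ-HFHC mouse, and at least 2 times the CPM of other nuclei wherever higher, ranked by the smaller ratio. From each of 23 gene lists the genes with most UMIs or the smallest p were added, with 162 named genes in all, from which the text takes examples. Coordinates are from GENCODE M21 (GRCm38), matched by gene ID. Doublet scores were computed per library and all nuclei kept. Subclusters came from Leiden clustering (Scanpy 1.11.5, igraph 0.11.9, 1000 variable genes, 20 principal components, 15 neighbors, resolution 0.5). DESeq2 1.42.0, other scalings, filters on counts and nuclei, thinning and leaving out each STZ-HFHC mouse were tried as alternatives. Endothelial nuclei had median depths of 1592 to 1778 UMIs, and summed depths of 1818355 to 2032292 UMIs per library, which limits genes of low level. Of the genes of the lists, 1 is not reported here.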

Additional observations from a re-analysis of the deposited data

Results flagged for a closer look

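A difference between nucleus classes in the response to STZ-HFHC marked these results, since each passed the edgeR term of class by condition. Over all genes 544 passed. Among the genes named above, the change in endothelial nuclei exceeded that in other nuclei on the log2 scale by 3.16 for *Ednrb*, 3.24 for *Myrip* (3 UMIs in the ND endothelial nuclei), 2.01 for *Cdh4*, 1.98 for *Mecom*, 1.48 for *Thsd7a*, 1.17 for *Rspo3*, 1.16 for *Efnb2*, 1.15 for *Smad6*, 1.10 for *Jam2*, 0.72 for *Cdh13* and 0.67 for *Eng*.

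The difference was downward for *Gna14* at −1.48, *Cd36* at −0.79, *Ppara* at −0.79, *Col18a1* at −0.68 and *Acsl1* at −0.61. Of these, *Cd36* was higher in the STZ-HFHC mice in both classes, and *Col18a1* and *Acsl1* were lower in both. *Ednrb* and *Mecom* passed in 10 of 10 alternative settings, *Jam2*, *Smad6* and *Cdh4* in 9, *Eng* in 8, *Gna14* and *Cdh13* in 7, *Rspo3* and *Efnb2* in 6, *Thsd7a* in 5, *Col18a1* in 4, *Cd36* and *Acsl1* in 2, *Myrip* in 1 and *Ppara* in 6. With nuclei thinned to 1000 UMIs before the rule the difference turned to −0.34 for *Rspo3*, −0.14 for *Cdh13* and −0.07 for *Eng*, and was 0.08 for *Jam2*, 0.45 for *Efnb2*, 0.51 for *Thsd7a* and 0.54 for *Smad6*. *Nav3* also passed, and did so in 1 of 6 alternative settings, with no UMI in the ND endothelial nuclei and so no size given.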

How the results depend on the processing

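Of 69 genes named in the text and run under every setting that kept them, 58 were called, the change in endothelial nuclei turned direction in none of these, and 48 kept their call in all settings other than thinning, DESeq2 and the endothelial scale. The count of changed genes (1957) was 1120 with no excluding gene allowed, 0 with nuclei thinned to 1000 UMIs (edgeR, 1322 at an unadjusted p under 0.05, and 1657 of 1662 earlier calls with the same sign), 599 by DESeq2 (597 of them shared) and 3983 on the endothelial scale. The thinned fit had 1.72 prior degrees of freedom against 10.5 in the main fit, and the part of this in the lost calls was not tested. The count of genes that differed between the classes (544) was 65 without limits on genes and mitochondrial counts, 360 with at least 4 endothelial genes, 149 with no excluding gene, 103 thinned, 178 in nuclei at or under the median hepatocyte marker share, 180 by total UMIs and 171 with at least 100 UMIs. The count past the rule of size (1442) was 946 with no excluding gene, 2347 with the excluding part dropped, 811 thinned, and 1776 to 2327 with 1 STZ-HFHC mouse left out, the higher value without STZ-HFHC 2. The ratio of endothelial shares (1.223) was 0.874 with no excluding gene, a reversal, 1.713 with the excluding part dropped, 1.736 thinned, and 1.145 to 1.301 with 1 mouse left out. The log2 ratio of the pericentral sum (1.223) was 0.805 thinned, and 0.995 to 1.451 with 1 mouse left out, and that of the periportal sum (0.864) was 0.669 to 1.059. The causes were not tested. Depth limits genes with few ND UMIs. No paired analysis was made, since the labels give no pairing between the ND mouse and the STZ-HFHC mice.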
